A study of Gallus gallus with 4 samples.

Results

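Red blood cells of the chicken lung at embryonic day 20 (E20) were chosen by their globin share, as the barcodes whose RNA was mostly globin messenger. In each of 2 single-cell RNA libraries, a barcode was counted as a red cell when it had at least 200 detected genes, at most 20% mitochondrial UMIs and at least 50% of its UMIs from 6 globin genes (HBBA, HBA1, HBAD, HBBR, HBE and HBE1). A UMI is a molecular tag that marks 1 captured RNA molecule. The rule found 384 red cells among 8341 listed barcodes of the E20 epithelial library (4.60%, exact 95% binomial interval 4.16% to 5.08%) and 695 among 4567 of the E20 CD45neg library (15.2%, 14.2% to 16.3%), which makes 1079 of 12908 E20 barcodes. The series lists 21613 barcodes over its 3 RNA libraries. The globin share chose the cells, so high globin is a description and not a finding.

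Both libraries came from the lungs of wild-type chicken embryos and were sorted by flow cytometry after dissociation. Per the labels, the epithelial library held epithelial cells, enriched through the surface protein ECAD, and its molecule is given as nuclear RNA. The CD45neg library held all lung cells except immune cells, which carry CD45, and its molecule is given as total RNA. The ECAD sort did not target red cells, and the CD45neg sort, per its label, left out immune cells only. The share of red cells therefore describes what passed each sort. Each group was 1 library, so no difference was tested, and every interval below covers counting error only.

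Bird red cells keep their nucleus, unlike those of mammals, and go on carrying RNA in the circulation. Haemoglobin is built from alpha-type and beta-type globin chains with haem. Early embryonic (primitive) chicken red cells use the beta-type genes HBBR (rho) and HBE (epsilon) and the alpha-type gene HBZ (pi). Of the beta-type genes, the later (definitive) lineage uses HBBA (beta-A) and HBE1 (beta-H, the hatching globin). HBA1 (alpha-A) and HBAD (alpha-D) are the other alpha-type genes. The beta-type genes lie together on chromosome 1, with start sites at 197277208 for HBE, 197281946 for HBBA, 197284551 for HBE1 and 197289402 for HBBR. The alpha-type genes lie on chromosome 14, with start sites at 12503627 for HBZ, 12507333 for HBAD and 12510348 for HBA1 (positions as deposited with the E13 gene table, build galGal6 per the submitters' processing notes).

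The libraries shared barcodes, and this touched the deepest red cells. Of 106 barcodes listed in both libraries, 95 were globin-rich in both, and all 95 were red cells in the CD45neg library, where they had 10915 to 26916 UMIs (median 17507). The same 95 barcodes had 509 to 1204 UMIs in the epithelial library (median 726), which was 2.64% to 5.03% of their CD45neg UMIs, and at most 179 genes, so none was a red cell there. Several results of the CD45neg library that move without these 95 barcodes are given both ways, and the others are given with them only. Without them the CD45neg library had 600 red cells, with a median of 3412 UMIs.

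Red cells held a median of 2844 UMIs and 573 genes per barcode (epithelial library) or 4029 UMIs and 567 genes (CD45neg library). Barcodes with under 5% globin, used for comparison and called low-globin barcodes, numbered 4399 and 1724 and held 1650 and 1559 genes at the median. Mitochondrial UMIs made up a median of 0.914% and 0.400% of all red-cell UMIs, against 8.79% and 5.13% in low-globin barcodes. Globin fills at least 50% of red-cell UMIs by the rule and so lowers this share. Among summed UMIs outside the globins the gap was smaller. Mitochondrial UMIs were 5.69% and 3.45% of these in red cells, against 8.72% and 5.68% in low-globin barcodes. Outside the globins, the red cells gave 519307 UMIs in the epithelial and 935714 in the CD45neg library, so the floor for a gene with 0 UMIs, taken as 3 counts, was 5.78 and 3.21 CPM (UMIs per 1e6 UMIs outside the globin genes).

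Globin share had no empty gap at 50%. In the CD45neg library barcodes were few on both sides of the threshold. There were 20 to 35 per bin of 2.5 percentage points from 40% to 50%, then 35 from 50% to 52.5% and 34 from 52.5% to 55%. Other bins held 208 from 15% to 17.5% and 41 to 48 each from 55% to 70%. Counts as low also occurred at higher shares, with 29 from 70% to 72.5% and no barcode from 92.5% up. A further 1680 barcodes of the epithelial library and 1800 of the CD45neg library lay between 5% and 50%. SLC4A1 and CA2 stood at like levels just outside and just inside the threshold. In the epithelial library, the anion exchanger gene SLC4A1 stood at 2268 CPM from 45% to 50% globin and at 2096 CPM from 50% to 55%. The carbonic anhydrase gene CA2 stood at 21483 and 23073 CPM on the same sides. In the CD45neg library SLC4A1 was at 1978 and 1788 CPM, and CA2 at 25886 and 23529 CPM. Other values differed across the threshold. TPT1, translationally controlled tumour protein, had 17524 and 23885 CPM in the epithelial and 22744 and 26553 CPM in the CD45neg library. The median number of genes was 528 and 530 in the epithelial library but 716 and 545 in the CD45neg library. The red cells described here are, by the rule, the globin-rich end of the kept barcodes. Whether the barcodes between 5% and 50% globin are red cells was not tested.

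**Figure D1:**
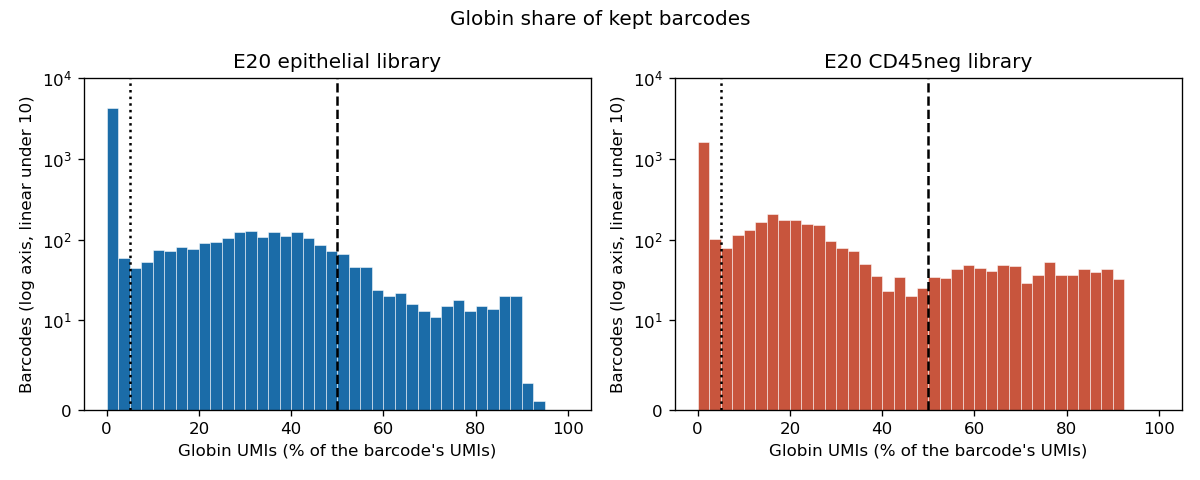
Number of kept barcodes (y axis, logarithmic above 10 barcodes) by globin share in percent of UMIs (x axis, bins of 2.5 percentage points) in each E20 library. The dotted line marks 5% and the dashed line 50%; 384 and 695 red cells lie right of the dashed line, and no empty gap separates them from the 1680 and 1800 barcodes between the lines.

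The beta-type globin messengers of E20 red cells were of the definitive type in both libraries. HBBA made up 42.8% of globin UMIs in the epithelial and 43.1% in the CD45neg library. HBA1 made up 35.3% and 34.7%, and HBAD 20.6% in each. The 2 libraries thus differed by less than 1 percentage point for each of these genes. HBA1 and HBAD together made 55.9% and 55.3%, a ratio of alpha-type to beta-type UMIs of 1.27 and 1.24. HBE1, the hatching globin, was the minor member at 1.32% and 1.58%. It reached 0.817% in the CD45neg library without the barcodes listed in both libraries.

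Primitive-type globins were close to absent. HBE gave 7 UMIs in the epithelial red cells and 57 in the CD45neg red cells, out of 1628464 and 3508096 globin UMIs. HBBR gave 1 and 23 UMIs, and HBZ gave 10 and 31. An HBE or HBBR UMI was seen in 7 of 384 red cells (1.82%) and in 28 of 695 (4.03%), and their highest share of globin UMIs in a single red cell was 1.31%.

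Single red cells varied in their globin mix by more than counting alone gives. The HBBA share ran from 25.7% to 57.7% over epithelial-library red cells (median 41.1%), with a standard deviation of 5.01 percentage points where counting alone gives 1.19. In the CD45neg library it ran from 20.8% to 55.1% (median 42.4%), with a standard deviation of 4.53 against 0.992. HBE1 had a long upper tail. Its median was 0.524% and 0.531% in the 2 libraries, while the highest cells reached 5.75% and 8.31%. Cells are not replicates of a condition, so this spread describes the cells of these libraries.

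The low-globin barcodes carried the same 4 globins at a low level, with a shifted alpha-type balance. HBAD was 42.4% of HBA1 plus HBAD UMIs in low-globin barcodes of the epithelial library against 36.8% in its red cells. In the CD45neg library the values were 43.8% and 37.2%. HBBA was within 1.2 percentage points of its red-cell share in both libraries, at 41.6% and 43.9%.

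Red-cell messengers were ranked among genes with a symbol, leaving out globin, mitochondrial and ribosomal protein genes. Ribosomal protein genes made up 18.3% and 19.6% of summed non-globin UMIs in red cells. The most abundant ranked messengers included those for iron storage, carbon dioxide handling and peroxide defence. FTH1, the ferritin heavy chain that stores iron, led with 49169 CPM in the epithelial and 54925 CPM in the CD45neg library, against 3031 and 3609 CPM in low-globin barcodes. TPT1 followed with 29936 and 34877 CPM. CA2, the carbonic anhydrase that turns carbon dioxide into bicarbonate, had 24562 and 26013 CPM against 202 and 397. It was found in 98.2% and 98.0% of red cells thinned to 200 non-globin UMIs each (100% of the unthinned cells), and in 4.89% and 7.37% of low-globin barcodes thinned alike (40.5% and 50.5% unthinned). ITGB1BP3, a nicotinamide riboside kinase, had 15715 and 17831 CPM. The remaining genes among the 10 highest so ranked were IFI27L2, GPX1, H3F3C, SAT1, WBP4 and UBB, from 5285 to 8806 CPM over both libraries.

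Non-globin genes were then compared between red cells and low-globin barcodes of the same library. Ratios are log2 of CPM plus 1, less the median over the genes compared, which was 0.06 in the epithelial and -0.65 in the CD45neg library. Genes at 50 CPM or more in the higher class were compared, and at least 2-fold from the median is called higher or lower. Over both libraries, 955 of 3157 genes (30.3%) were higher in red cells and 960 (30.4%) were lower. Taken alone, the epithelial library had 30.7% of 3424 genes higher and 36.6% lower, and the CD45neg library 34.5% of 3891 higher and 38.3% lower. About 3 in 10 genes in each direction is thus the background for each list below, and the median over all genes compared is 0 by construction. A gene under 50 CPM in 1 class was compared only through its level in the other. This minimum partly sets the counts and medians of the lists, and the background share does not correct for it. The counts and medians of each list below are over its genes compared in both libraries.

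Membrane protein genes of the red cell were among those highest against low-globin barcodes. SLC4A1, the band 3 anion exchanger that swaps bicarbonate for chloride, had 4662 CPM in red cells against 12.97 CPM in low-globin barcodes of the epithelial library. In the CD45neg library it had 4556 against 35.5 CPM, and 3142 CPM in red cells without the barcodes listed in both libraries. RHAG, the Rh-associated glycoprotein of the membrane, had 1641 against 4.88 CPM and 1700 against 8.98 CPM. EPB42, the skeleton-linking protein 4.2, had 637 against 1.43 CPM and 676 against 3.81 CPM. TSPO2 had 1720 and 2192 CPM in red cells, the erythroid transcription factor SOX6 354 and 386 CPM, and the carbonic anhydrase CA13 362 and 434 CPM, each at or under 13.1 CPM in low-globin barcodes. SUSD3, WBP4, CA2 and BG8 complete the 10 genes with a symbol that were highest in both libraries. BG8 belongs to the B-G family, whose proteins are red-cell alloantigens of the chicken; its copies are alike, so its 69 and 102 UMIs may be shared among them.

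Of the 10 genes with a symbol that were lowest in red cells, most were barely detected there. CPE had 0 UMIs in the red cells of both libraries, where the floor of 3 counts is 5.78 and 3.21 CPM, against 57.1 and 69.3 CPM in low-globin barcodes. MECOM, ALCAM, PDGFA, DOCK1, WNT5A, AGRN and DKK3 had at most 4 UMIs each in the red cells of either library. KRT18, an epithelial keratin, had 19.3 and 1.07 CPM against 469 and 83.7. S100A6 had 158 and 26.7 CPM against 3477 and 1718.

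**Figure D2:**
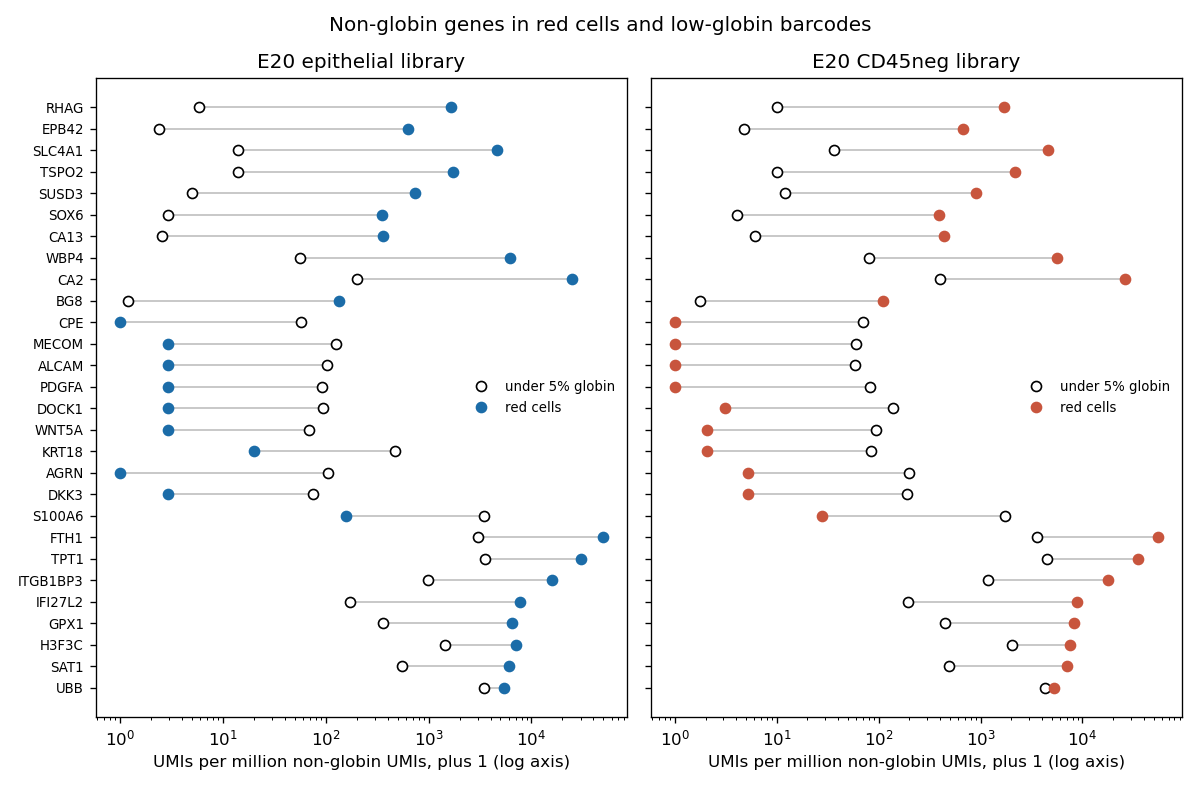
Level of each gene in CPM of non-globin UMIs plus 1 (x axis, logarithmic) in red cells (filled) and low-globin barcodes (open) of each E20 library, 1 library per panel. All genes shown have a symbol and are not globin, mitochondrial or ribosomal protein genes. From the top are the 10 genes highest and the 10 lowest in red cells by the smaller ratio of the 2 libraries. The most abundant genes not yet shown follow. SLC4A1 stands at 4662 and 4556 CPM in red cells, and CPE at 0.

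Membrane and skeleton genes were split. Of 16 genes of that list compared in both libraries, 10 were higher in red cells and 2 lower, with medians of 4.70 and 5.30 on the log2 scale. Beside those named above, ANK1 (ankyrin, 114 and 91.9 CPM), EPB41 (protein 4.1, 747 and 632 CPM) and SLC29A1 (a nucleoside transporter, 385 and 346 CPM) were higher. The water channel gene AQP1, a mammalian red-cell protein, was lower, at 146 and 65.2 CPM against 2030 and 1184 CPM. STOM (stomatin) was the other lower gene, at 40.4 and 38.5 CPM. The glucose transporter gene SLC2A1 had 6 and 2 UMIs.

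All 8 haem genes compared in both libraries were higher in red cells, with medians of 3.74 and 4.49. UROD, SLC25A37, UROS, ABCB6 and HMOX2 were under 50 CPM in low-globin barcodes of both libraries. They were thus compared only through their red-cell level, which partly fixes this count. Over all 15 listed genes present, with no minimum, CPM summed to 2405 against 293 in the epithelial library. In the CD45neg library the sums were 2993 and 318 CPM. UROD, a mid-pathway enzyme of haem synthesis, had 1075 and 1448 CPM against 29.3 and 35.9 CPM. SLC25A37, the mitochondrial iron importer mitoferrin, had 256 and 355 CPM against 3.62 and 2.89 CPM. UROS and ABCB6 had 198 and 127 CPM in the epithelial library, and 145 and 122 CPM in the CD45neg library. HMOX2, a haem-degrading enzyme, was the least raised of the 8, at 88.6 and 70.5 CPM against 34.1 and 45.4 CPM. Genes compared in 1 library alone included lower ones. ALAS1, the housekeeping first enzyme of the pathway, had 3 and 7 UMIs and was lower in the CD45neg library (-2.20). HMOX1, the inducible haem-degrading enzyme, was lower in the epithelial library (-1.26), at 21.2 against 50.1 CPM.

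Of 9 iron genes compared in both libraries, 7 were higher and none lower in both, with medians of 2.23 and 2.74. ACO1, whose protein binds iron-responsive RNA elements, was compared in the CD45neg library alone and was lower there (-2.63), with 5 UMIs. TFRC, the transferrin receptor that brings iron in, had 514 and 373 CPM against 9.73 and 16.6 CPM. NCOA4, the receptor that hands ferritin over for breakdown, had 1710 and 1681 CPM against 98.0 and 115 CPM. STEAP3, an endosomal iron reductase, had 125 and 151 CPM against 5.77 and 2.13 CPM. TFRC and STEAP3 passed the 50 CPM minimum only through red cells. SLC40A1, the iron exporter ferroportin, had 40.4 and 38.5 CPM against 67.7 and 56.5 CPM, within 2-fold of the median in both libraries.

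Carbonic anhydrase, redox and glycolysis genes fell on both sides, with 9 of 21 higher and 9 lower. BPGM, which makes the bisphosphoglycerate that tunes mammalian haemoglobin, had 1874 and 1882 CPM against 31.3 and 69.6 CPM. GPX1, a glutathione peroxidase, had 6528 and 8303 CPM against 363 and 452 CPM. The peroxiredoxin gene PRDX1 had 1918 and 2624 CPM against 373 and 359 CPM. Glycolytic GAPDH was lower, at 102 and 50.2 CPM against 1009 and 1020 CPM, and the secreted peroxidase gene GPX3 was lower, at 146 and 25.6 CPM against 990 and 3149 CPM. The list's median was -0.082 in the epithelial and 1.03 in the CD45neg library.

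Regulators and maturation genes were mixed. Of 6 erythroid transcription factor genes compared, 3 were higher and 1 lower; SOX6, KLF3 (135 and 133 CPM against 34.2 and 67.4) and TAL1 (335 and 377 CPM against 40.8 and 37.6) were higher, and KLF13 was lower with 9 and 2 UMIs. Medians of that list were 1.52 and 1.03. Of 5 erythropoietin and KIT signalling genes, 4 were higher, with medians of 3.80 and 3.49: the kinase genes JAK2 (214 and 184 CPM) and PIM1 (356 and 391 CPM), the feedback gene CISH (245 and 273 CPM) and the survival gene BCL2L1 (882 and 856 CPM). JAK2, PIM1 and CISH were under 50 CPM in low-globin barcodes of both libraries, so they passed the minimum only through red cells. The kinase gene LYN was lower with 7 and 3 UMIs, and the receptor gene KIT had 2 and 1. Of 14 genes of maturation and organelle clearance, 10 were higher and none lower, with medians of 1.43 and 1.85. BNIP3L, a mitophagy receptor, had 1078 and 1155 CPM against 139 and 189 CPM, and the iron-sulphur assembly gene ISCA1 had 1504 and 1753 CPM against 109 and 188 CPM.

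Chromatin and cell-cycle genes went both ways. Of 7 chromatin genes, H3F3C (a histone H3.3 gene, 7023 and 7519 CPM against 1451 and 2051) and HMGN1 were higher in both libraries, and HMGB1 was lower, with medians of 0.55 and 1.28. Taken alone, the CD45neg library had 5 of 9 chromatin genes higher and 2 lower. In the proliferation list only PCNA and STMN1 reached 50 CPM. PCNA, the DNA clamp, was higher at 246 and 264 CPM against 63.2 and 73.4 CPM, and STMN1 was lower at 19.3 and 17.1 CPM. TOP2A, a mitotic marker, gave 1 and 8 UMIs, and CDK1 gave 1 and 16. Each was found in only 0.288% of the CD45neg red cells.

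Red cells differed among themselves along the globin share, in the same way in both libraries. Non-globin UMIs were higher at high globin shares, with medians of 958 at 50% to 60% globin and 1872 at 80% or more in the epithelial library, and of 1072 and 1549 in the CD45neg library. The 80% to 100% bin held 73 and 198 red cells, and the 50% to 60% bin 183 and 160. Between these bins, 218 of 2302 genes (9.47%) were at least 2-fold above the median in both libraries and 100 (4.34%) at least 2-fold below it. The genes named next were chosen after their values were seen.

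**Figure D3:**
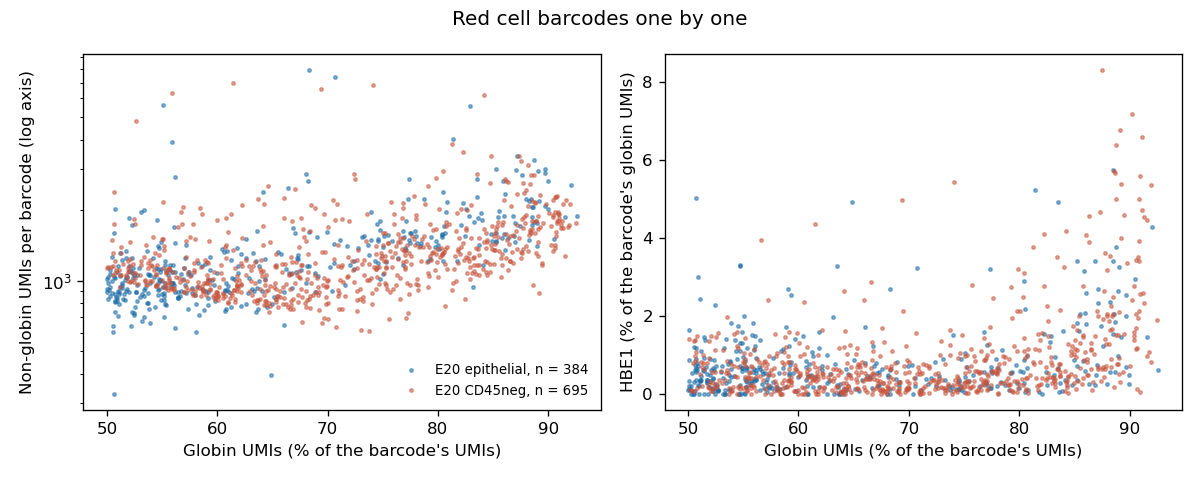
Each point is 1 red cell, with globin share in percent of UMIs on the x axis; the y axis gives non-globin UMIs (left, logarithmic) and HBE1 in percent of globin UMIs (right). Both libraries (384 and 695 cells) spread over the whole range, and the highest HBE1 share, 8.31%, is at a high globin share.

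Among red cells, the hatching globin was highest in the most globin-rich. HBE1 was 0.652%, 0.735%, 0.731% and 1.75% of globin UMIs at 50% to 60%, 60% to 70%, 70% to 80% and 80% or more globin in the epithelial library. In the CD45neg library the same 4 bins gave 0.615%, 0.772%, 0.764% and 2.06%. The step lay in the last bin in both. Barcodes outside the red cells stood above the bins from 50% to 80%. At under 5%, 5% to 20% and 20% to 50% globin, HBE1 was 0.976%, 1.04% and 0.936% in the epithelial library. The CD45neg library gave 0.969%, 0.884% and 0.948%. Without the barcodes listed in both libraries, the last bin of the CD45neg library was at 1.13%.

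TUBB1, the beta-tubulin of the marginal band that shapes bird red cells and thrombocytes, came first among genes higher at high globin, ranked by the smaller ratio of both libraries. It had 25.9, 167, 202 and 1998 CPM over the 4 bins of the epithelial library, and 15.6, 184, 102 and 2046 CPM in the CD45neg library. At 80% globin or more, 36 of 73 epithelial-library cells (49.3%) and 95 of 198 CD45neg cells (48.0%) had a TUBB1 UMI, against 5 of 183 (2.73%) and 3 of 160 (1.88%) at 50% to 60%. These shares are not thinned, and cells of the last bin are the deeper ones. The 198 CD45neg cells of that bin include 91 barcodes listed in both libraries. Without the barcodes listed in both libraries, the last CD45neg bin had 107 cells and 726 CPM.

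Other membrane, skeleton and metabolic genes went with it. SLC4A1 had 2076 CPM at 50% to 60% and 9263 CPM at 80% or more in the epithelial library, and 1954 and 7900 CPM in the CD45neg library (5261 CPM in the last bin without the shared barcodes). TMOD4, a tropomodulin that caps actin filaments, had 88.2 and 1273 CPM, and 114 and 1496 CPM (1059 without them). MGST3, a microsomal glutathione transferase, had 67.5 and 1639 CPM, and 67.5 and 1780 CPM (781 without them). PSPH (serine synthesis), MTHFD2 (mitochondrial folate), ASNS (asparagine synthesis), ODC1 (polyamine synthesis) and SMOC1 were the other genes of the 8 with the largest change upward, on counts of 9 to 93 UMIs in the last bin. Without the shared barcodes, the last CD45neg bin held 4 UMIs of PSPH, 10 of MTHFD2 and 21 of ASNS, with MTHFD2 at 67.9 instead of 139 CPM and ASNS at 143 instead of 281 CPM. ODC1 then had 156 instead of 224 CPM, SMOC1 115 instead of 127 CPM and PSPH 27.2 instead of 51.4 CPM. The haem enzyme gene UROD also stood higher, at 1625 CPM against 701 CPM in the epithelial library, and 2037 CPM against 930 CPM in the CD45neg library.

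Some genes stood lower at 80% globin or more than at 50% to 60%, though not all fell steadily between. The largest changes downward were those of COL5A1, MSN, UBL3, TPM1, BBIP1, SPARC, PHF20 and PCMT1L. They rested on 0 to 22 UMIs in the last bin. SPARC, a mesenchymal marker, had 254 CPM at 50% to 60% and 47.4 CPM at 80% or more in the epithelial library. In the CD45neg library SPARC had 395, 131, 63.2 and 66.5 CPM, and COL5A1 104, 193, 9.73 and 9.07 CPM. FTH1 had 60742 CPM at 50% to 60% and 36654 CPM at 80% or more in the epithelial library, and 66579 and 43677 CPM in the CD45neg library. TFRC had 721 and 339 CPM, and 530 and 260 CPM. Neither was 2-fold from the median change over genes, and the iron gene NCOA4 stood higher, at 1245 and 2038 CPM, and at 1029 and 2061 CPM. BCL2L1 had 1245 and 427 CPM, and 1278 and 393 CPM. Without the shared barcodes, the last CD45neg bin had 47997 CPM of FTH1, 305 CPM of TFRC and 557 CPM of BCL2L1. ALAD, an early haem enzyme, had 223 and 142 CPM, and 312 and 166 CPM, opposite in direction to UROD. Its change was within 2-fold of the median change over genes in both libraries. Without the shared barcodes, ALAD had 197 CPM on 29 UMIs in the last CD45neg bin.

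**Figure D4:**
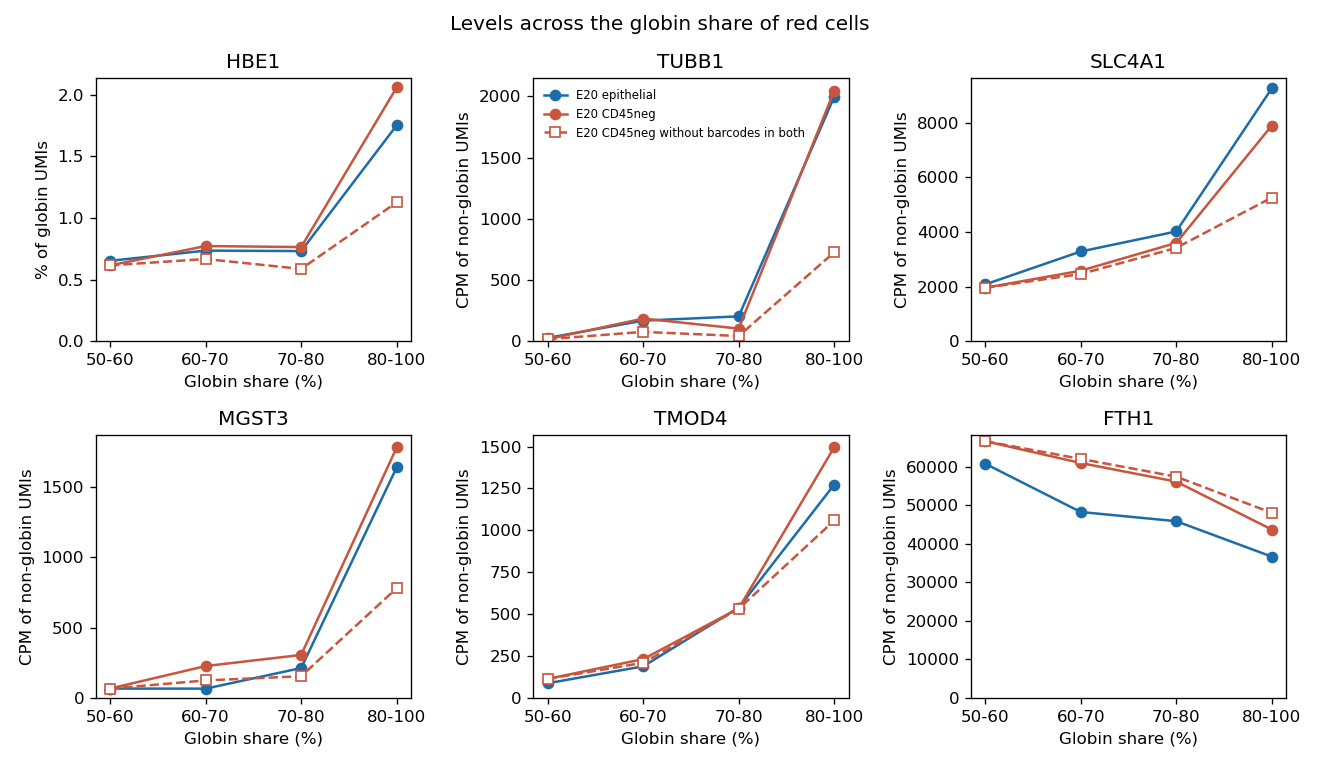
Levels of HBE1 (percent of globin UMIs) and of TUBB1, SLC4A1, MGST3, TMOD4 and FTH1 (CPM of non-globin UMIs) on the y axes, against 4 bins of globin share in percent on the x axes; open squares leave out the barcodes listed in both libraries. In both libraries 5 of the genes are highest in the last bin and FTH1 is lowest there, at 36654 and 43677 CPM.

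The same genes were compared between red cells of high and low HBE1 share, a comparison that overlaps the one by globin share: the median globin share was 85.4% and 87.9% at an HBE1 share of 2% or more, and 60.8% and 67.7% under 0.5%. Red cells with an HBE1 share of 2% or more numbered 36 in the epithelial library, with 2357 CPM of TUBB1, 8688 CPM of SLC4A1 and 32908 CPM of FTH1. The 188 cells under 0.5% had 81.8, 3341 and 52069 CPM. In the CD45neg library the 70 cells at 2% or more had 2713, 9004 and 39916 CPM, and the 330 cells under 0.5% had 81.1, 3007 and 58722 CPM. Of those 70 cells, 46 were barcodes listed in both libraries; the other 24 had 870, 4896 and 46951 CPM, and the 322 such cells under 0.5% had 47.3, 2836 and 59226 CPM. The cells at 2% or more were also deep, with median UMIs of 15445 and 16385 against 2694 and 3350, and the parts of depth and globin share in these differences were not tested.

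The red cells of the 2 libraries resembled each other beyond the globins. Of 2465 genes compared, 105 (4.26%) were at least 2-fold higher in the epithelial library's red cells and 20 (0.811%) at least 2-fold higher in those of the CD45neg library, with a median distance of 0.23 on the log2 scale. The 5 genes with a symbol highest in the epithelial library were SFTPA2 (144 against 4.27 CPM), SFTPA1 (387 against 13.9 CPM), IGFBP5, SFTPC (3029 against 176 CPM) and SPINK5. The surfactant genes SFTPA1, SFTPA2 and SFTPC belong to lung epithelium, and SFTPC was also higher in the low-globin barcodes of that library, at 45701 against 8814 CPM. IGFBP5 rested on 1 barcode, which held 29 of its 32 UMIs.

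The genes highest in the CD45neg red cells rested on few cells. A single barcode held 47 of 48 UMIs of COL8A1, 64 of 87 of ACTA2 and 90 of 105 of TAGLN, the last a smooth muscle gene like ACTA2. IFIT5 (72 UMIs, 16 cells) and the centromere histone gene CenpA (59 UMIs, 17 cells) were spread over more cells.

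Markers of other lung cell types that were compared had lower CPM in red cells, with 1 exception. All 9 epithelial markers and all 10 endothelial markers compared in both libraries were lower, with medians of -3.75 and -4.71, and of -2.58 and -4.51. Markers such as KRT7 and KRT18 were under 50 CPM in red cells of both libraries. They passed the minimum only through low-globin barcodes, so these counts and medians are partly fixed by it. The summed levels below use all listed markers present, with no minimum. Of 15 mesenchymal markers 14 were lower, with medians of -3.07 and -3.98. VIM, the intermediate filament gene vimentin, was higher, at 2910 and 3140 CPM against 543 and 692 CPM; chicken red cells are known to carry vimentin. EPCAM and CDH1, which define epithelium, had 8 and 16 UMIs in the epithelial library's red cells and 0 in those of the CD45neg library.

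Summed epithelial markers followed the library. They came to 11685 CPM in red cells of the epithelial library against 138256 CPM in its low-globin barcodes, and to 1232 against 26667 CPM in the CD45neg library. CST3 and SFTPC made up most of the red-cell sums. With each barcode thinned to 200 non-globin UMIs, an epithelial marker was found in 91.1% of red cells of the epithelial library. Among its low-globin barcodes the share was 89.2%, and the CD45neg library gave 23.6% and 29.2%. Mesenchymal markers, VIM included, were found in 53.1% and 48.3%, and in 53.5% and 74.8%. Endothelial markers were found in 7.03% and 26.4%, and in 3.88% and 42.0%. Epithelial markers stood at 14229 CPM at 50% to 60% globin and at 8634 CPM at 80% or more in the epithelial library. Endothelial markers summed to 493 and 190 CPM in red cells, against 2716 and 5681 CPM in low-globin barcodes. Mesenchymal markers summed to 6033 and 4850 CPM in red cells, of which VIM gave 2910 and 3140. In low-globin barcodes the mesenchymal sums were 19030 and 44925 CPM. The part of RNA from other cells in the differences between the libraries was not tested.

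Immune and thrombocyte markers were low apart from TUBB1. Immune markers summed to 94.4 and 32.1 CPM in red cells, against 1211 and 112 CPM in low-globin barcodes. PTPRC, the gene of CD45, had 2 and 0 UMIs in red cells. After the 50 CPM minimum, 5 immune markers were compared in the epithelial library, all lower, and none in the CD45neg library. Thrombocyte markers summed to 799 and 885 CPM, of which TUBB1 gave 641 and 790 CPM. TUBB1 was at 181 CPM in CD45neg red cells without the barcodes listed in both libraries. GP1BB had 65.5 and 82.3 CPM and was also higher than in low-globin barcodes, while THBS1 was lower with 3 and 2 UMIs. The defining thrombocyte integrin gene ITGA2B had 13 UMIs in the epithelial library's red cells and 0 in those of the CD45neg library.

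**Figure D5:**
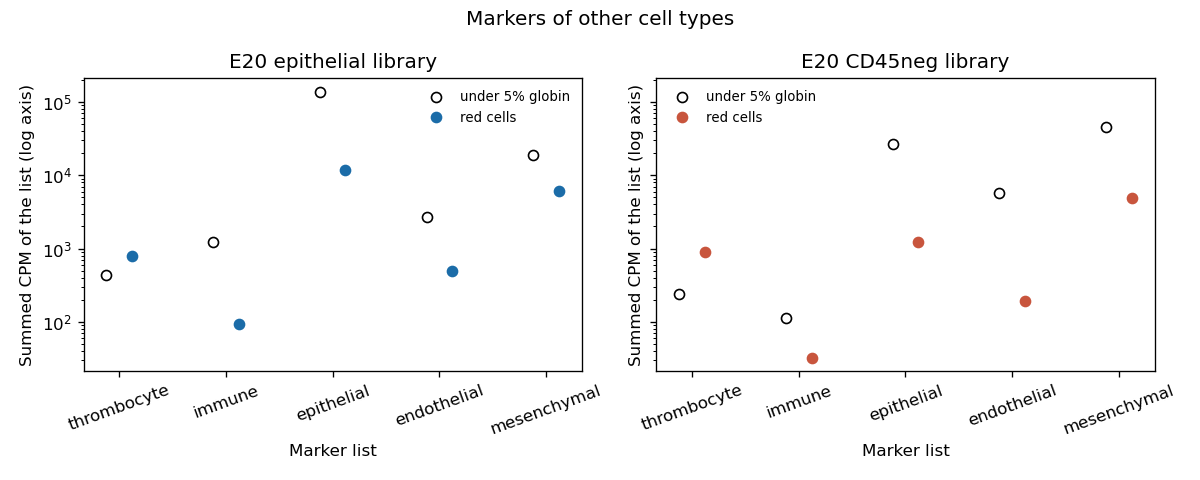
Summed level of 5 marker lists (x axis) in CPM of non-globin UMIs (y axis, logarithmic) in red cells (filled) and low-globin barcodes (open) of each library. Red cells lie below low-globin barcodes for 4 lists and above for the thrombocyte list, at 799 and 885 CPM, through TUBB1.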

How the data were processed

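Per the labels, lung cells were sorted and sequenced as 1 library per group. The deposited values are raw UMI counts for each barcode, made by the authors with cellranger 4.0.0 per the file headers; the submitters' processing notes name galGal6, Cell Ranger, Seurat and Signac. How the listed barcodes were chosen, and whether intron reads were counted, is not given in the sources used here.

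Counts were summed over the barcodes of a class in each library (Python 3.11.15, numpy 2.4.6, scipy 1.17.1, pandas 2.3.3). CPM used all UMIs outside 7 globin genes (the 6 of the rule and HBZ). Mitochondrial and 72 ribosomal protein genes were not compared. Intervals are exact Poisson or Clopper-Pearson at 95%, and the floor for 0 UMIs is 3 counts. Doublet-like barcodes were kept, and removed as an alternative, by scores from simulated doublets (scanpy 1.11.5). The calculation of ratios was tested on simulated data. With 1 library per group no count model was run.

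Non-globin genes were named from those with a symbol, outside the mitochondrial and ribosomal protein genes. They are the 10 highest and 10 lowest in red cells by the smaller ratio of both libraries, and the 10 most abundant. The 5 highest and lowest between libraries, and the 4 highest and the lowest of each list, were also named. Further list members and the genes that vary with globin share were chosen after their values were seen. Of 277 listed genes 220 were in the table. The members and lists were chosen with earlier results of these data known. Alternatives are in the closing section.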

Additional observations from a re-analysis of the deposited data

Results flagged for a closer look

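In the epithelial library, 98 of the 830 barcodes under the gene minimum (11.8%) held at least 50% globin UMIs and were left out by the rule. Of these 98 barcodes, 95 were also listed in the CD45neg library as red cells. They had a median of 62 genes in the epithelial library and 742 in the CD45neg library.

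Primitive-type globins were more frequent in barcodes of 5% to 50% globin, which were not counted as red cells. An HBE or HBBR UMI was seen in 110 of 1680 such barcodes of the epithelial library (6.55%) and in 245 of 1800 of the CD45neg library (13.6%), against 1.82% and 4.03% of red cells. In 18 and 30 of these barcodes both genes together made at least 5% of globin UMIs, up to 34.0% and 40.3%, while no red cell reached 5%.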

How the results depend on the processing

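Red cells made 3.56% and 11.3% of listed barcodes (epithelial, then CD45neg library) with a minimum of 500 genes, 19.9% and 35.5% at 20% globin, 1.56% and 7.75% at 70%, and 0.0480% and 0.723% at 90%; without shared barcodes the CD45neg library gave 13.1%. HBBA was 43.0% and 43.4% of globin UMIs at 500 genes, 41.9% and 42.8% at 20% globin, 43.9% and 43.8% at 70%, 43.8% and 43.0% at 90%, and 43.0% in the CD45neg library without shared barcodes. HBE1 was 1.36% and 1.67%, 1.20% and 1.51%, 1.52% and 1.77%, 2.43% and 2.82%, and 0.817% under the same settings, and 1.29% in the epithelial library without doublet-like barcodes. HBA1 and HBAD made 55.6% and 54.9%, 56.9% and 55.7%, 54.6% and 54.4%, 53.8% and 54.2%, and 56.2%. Summed markers of other cell types, 18305 and 6304 CPM as reported, were 16405 and 5583 CPM without doublet-like barcodes, 22087 and 8128 at 20% globin, 15601 and 5555 at 70%, 12886 in the epithelial library at 90%, and 6595 in the CD45neg library at 500 genes. Genes higher and lower in red cells in both libraries numbered 2224 and 2091 at 10 CPM, and 2297 and 3654 with no minimum, where more genes were compared. Genes past 2-fold between the libraries numbered 125 as reported, 885 and 4044 under those 2 settings, 19 with CPM over all UMIs, 67 at 20% globin, 216 at 70% and 2066 at 90%.

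Of 2480 single-gene values under alternatives, 1591 were counted as unchanged and 874 as shifted. A reversal was counted only where the reported value was at least 2-fold from the median. Smaller values that changed sign are therefore among the unchanged or shifted. The shifted values numbered 132 with CPM over all UMIs, 119 at 90% globin and 100 at 20% globin, but 3 with a minimum of 100 genes. Shifts were thus counted more often than reversals so defined. The other 15 values were labelled reversed by their sign. At 90% globin, with few cells in the epithelial library, these were UROS (-1.73), HMOX2 (-4.41), KLF3 (-4.41, and -1.08 in the CD45neg library), CBFA2T3 (-4.25), TFRC (-2.70), STEAP3 (-2.04) and TAGLN (0.10) against low-globin barcodes. Apart from TAGLN, the epithelial-library values had no red-cell UMI behind them, with upper bounds of 4.51 to 7.47. Between the libraries TAGLN (6.95) had no UMI in the CD45neg red cells. IGFBP5 and SPINK5 (each -0.061) had no UMI in the red cells of either library. Their values are only the median taken off, and not a reversal. IGFBP5 reversed between the libraries without doublet-like barcodes (-0.050) and at 20% globin (-0.063), and COL8A1 (0.92) and TAGLN (0.69) at 70%. The thrombocyte median, 1.47 and 2.81 over 3 genes, reversed at 10 CPM (-0.88 and -2.26) and with no minimum (-1.30 and -0.21), where more genes were compared. The cause was not tested for the other reversals. The alternatives at 20% globin and without shared barcodes were chosen after seeing the data. No paired analysis was possible because each group is 1 library. Depth puts the floor of 3 counts at 5.78 and 3.21 CPM, and differences between the libraries have no replicate behind them.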
